A study of Mus musculus with 21 samples.

Results

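The gene set examined here consists of 35 interferon-stimulated antiviral genes, chosen as a fixed list of symbols and followed in fibroblasts sorted from mouse lungs with bleomycin or silica injury. All 35 symbols were among the 23204 gene symbols of the count files, and 32 passed the filter on low counts that left 11669 genes for testing. The other members, Oasl1, Oas2 and Oas3, are given by their counts only. Every group came from female C57BL/6 mice with a Col1a2-GFP transgene, in which green fluorescent protein is driven from the promoter of a type I collagen gene, so cells that did not use this promoter were not sampled. Mice were untreated, or had received 1 oropharyngeal aspiration of bleomycin (BLM, 2 mg/kg) or of crystalline silica (SiO2, 400 mg/kg) 7, 14 or 63 days before. Living GFP-positive cells were sorted after depletion of cells carrying Ter119, CD146, CD31, CD45 or EpCAM, and tags from the 3′ ends of their poly(A) RNA were counted. Each of the 7 groups had 3 libraries. The labels give no age, and do not say whether the libraries of a group came from separate mice, so p-values measure the spread between these libraries.

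Cells that detect viral or misplaced nucleic acid secrete type I interferons, which act through a cell-surface receptor and the kinases Jak1 and Tyk2. The signal brings a complex that holds Stat2 and Irf9 to the interferon-stimulated response element in the promoters of antiviral genes. Interferon gamma acts through a separate receptor and a separate element, the gamma-activated site, and the gene products described here sense nucleic acid, pass on the signal, or block steps of virus replication.

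The promoters of the genes on which the results turn are shown first, since these are where both elements lie. RefSeq promoter windows (assembly GRCm38.p6, 250 bases before to 50 after a gene's start) were matched by symbol for 26 of the 35 members; Dhx58, Oas2, Mx1, Mx2, Usp18, Zbp1, Parp9, Parp14 and Rtp4 had no entry. The response element was searched on both strands as GAAA, any 2 bases and GAAA again, so that it reads as a pair of TTTC where it lies on the other strand, and the gamma-activated site as TTCNNNGAA, which is its own reverse complement. The response element was found in 11 of the 26 members and in 3.99% of the 27025 genes in the table, and the gamma-activated site in 6 of the 26 and in 9.55%. A match is a stretch of letters and not a shown binding site. In the sequences below, written 5′ to 3′ in the direction of the gene, capitals mark the matches to the response element, or in Irf1 to the gamma-activated site, and tandem matches that share bases run together.
Isg15: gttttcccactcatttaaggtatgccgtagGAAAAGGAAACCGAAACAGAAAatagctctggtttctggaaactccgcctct
Ifit1: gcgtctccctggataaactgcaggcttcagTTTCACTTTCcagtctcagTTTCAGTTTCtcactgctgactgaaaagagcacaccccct
Ifit3: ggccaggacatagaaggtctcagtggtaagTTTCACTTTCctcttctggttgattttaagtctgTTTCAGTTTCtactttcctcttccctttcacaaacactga
Oas1a: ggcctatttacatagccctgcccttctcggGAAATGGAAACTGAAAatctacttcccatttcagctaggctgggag
Rsad2: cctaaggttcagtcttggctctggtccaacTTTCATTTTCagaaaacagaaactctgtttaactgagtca
Bst2: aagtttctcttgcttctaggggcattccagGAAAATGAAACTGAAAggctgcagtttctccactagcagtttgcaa
Ddx58: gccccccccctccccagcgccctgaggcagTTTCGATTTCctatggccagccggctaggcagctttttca
Irf1: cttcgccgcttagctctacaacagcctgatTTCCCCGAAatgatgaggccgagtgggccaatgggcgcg

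The Isg15 stretch, at chr4:156200845-156200926 on the minus strand, carried 3 overlapping matches, the first beginning 78 bases before the start. Oas1a (chr5:120907500-120907575 on the minus strand) and Bst2 (chr8:71537557-71537632 on the minus strand) each carried 2 overlapping matches. Ifit1 (chr19:34640755-34640843 on the plus strand) and Ifit3 (chr19:34583343-34583446 on the plus strand) each carried 2 separate matches on the opposite strand. Rsad2 (chr12:26456533-26456602 on the minus strand) and Ddx58 (chr4:40239784-40239853 on the minus strand) carried 1 match each, that of Ddx58 just after the start. Irf1 (chr11:53769894-53769962 on the plus strand) had no match to the response element in this window and had 1 to TTCNNNGAA, shown last. The other members with the response element were Ifih1, Stat2, Oas3 and Eif2ak2, and those with TTCNNNGAA, besides Irf1, were Ifit2, Ifi35, Oas1a, Bst2 and Eif2ak2. The match of Bst2 to TTCNNNGAA overlaps the start of its first response element and is not capitalised on its own.

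Total counts per library ran from 2080636 to 4477283 with a median of 3774431. Levels are counts scaled to the size of the library (CPM), with edgeR's TMM factors, and each test is edgeR's quasi-likelihood test over all 21 libraries, with p-values adjusted over the 11669 genes by the Benjamini-Hochberg method; a gene was called at an adjusted p under 0.05. Intervals and floors on counts cover counting error only. The sorted cells carried fibroblast markers, whose 8 genes summed to 16823 to 31027 CPM in a library, against 0 to 2.32 CPM for 8 lymphocyte markers, 4.23 to 33.7 CPM for 9 epithelial markers and 5.78 to 57.7 CPM for 11 myeloid markers. For 6 endothelial markers the sum was 4.56 to 30.9 CPM. Markers of other mesenchymal cells were more abundant, at 126 to 640.0 CPM for 6 mesothelial markers and 35.2 to 217 CPM for 8 markers of pericytes and smooth muscle. The reads were counted with a strand setting that is not given, so tags from a stretch shared by genes on opposite strands cannot be told apart. Such an overlap exists for 12 members, among them Irf7 with Phrf1 and Rtp4 with Masp1. Parp9 and Dtx3l overlap each other only at their starts, away from the 3′ ends where tags were taken. The Ifit, Oas and Mx genes are families of similar copies lying side by side, and the split of reads between copies is uncertain. BLM day 7 replicate 1 stood apart from its 2 partners in most members, and results that rest on it are given with and without it.

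In the mean of their summed level, the antiviral genes were above untreated fibroblasts in silica at each time and, with a wide spread between libraries, on BLM day 7, and below them on BLM day 14. The summed level of the members was 1204 ± 117 CPM in untreated fibroblasts (mean ± SD, n = 3 in each group), 1803 ± 826 on BLM day 7, 805.9 ± 128 on BLM day 14 and 1074 ± 54.1 on BLM day 63. In silica it was 1919 ± 309.6 on day 7, 2632 ± 347 on day 14 and 1759 ± 38.1 on day 63. Abundant members weigh most in this sum. Among them was Irf1, with means of 219.6 CPM in untreated fibroblasts and 303.3 on BLM day 63. SiO2 day 14 had the highest group mean for 23 of the 32 tested members, and BLM day 14 had the lowest for 20. The same ranks were not counted over all tested genes, so these 2 counts only describe the members. In these bulk samples, fewer cells that express a gene and less RNA in each cell cannot be told apart.

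**Figure D1:**
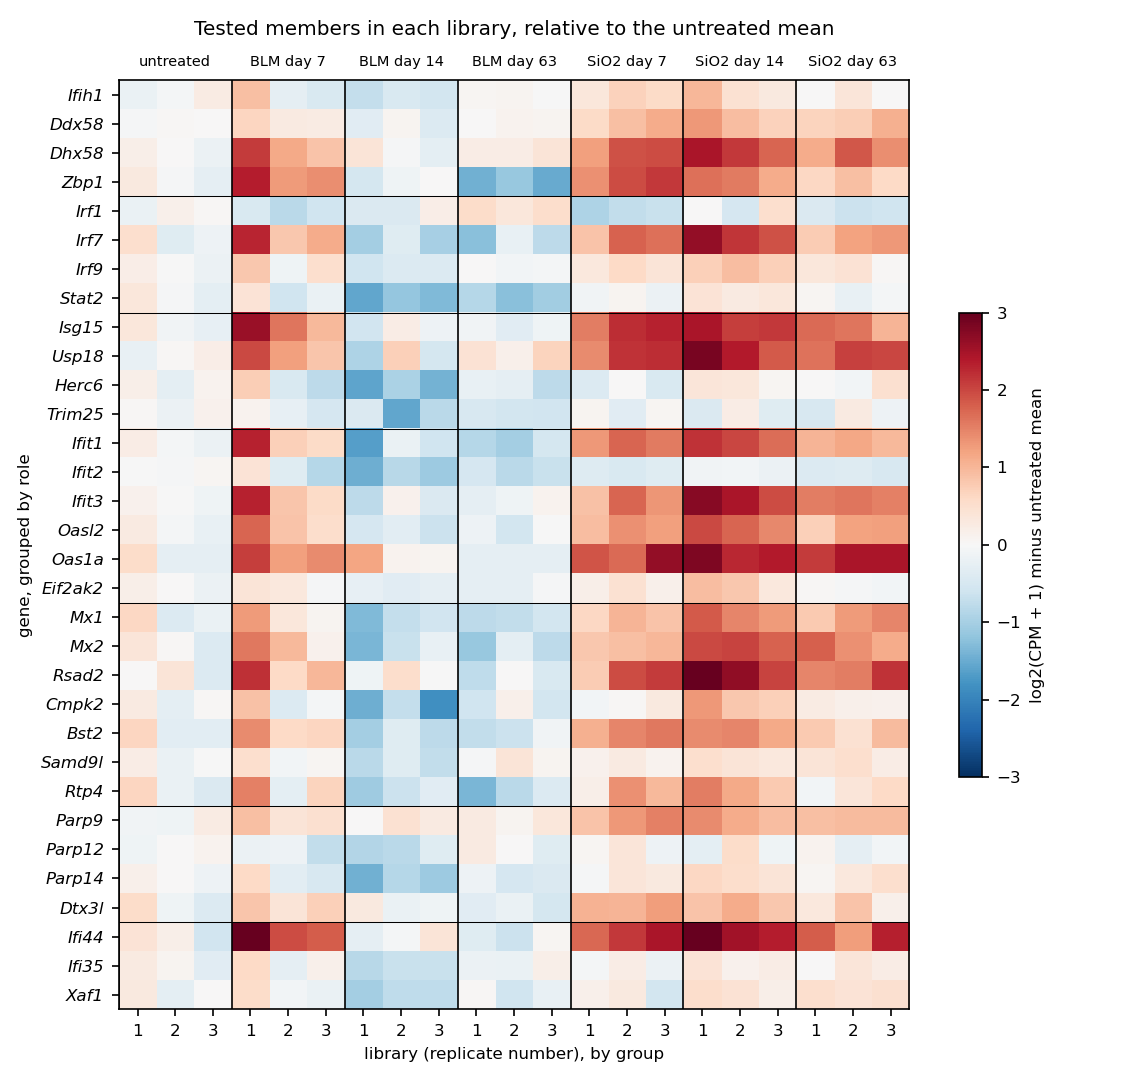
Heat map of the 32 tested members (rows, grouped by role) in the 21 libraries (columns), as log2(CPM + 1) minus the untreated mean; red is above and blue below the untreated mean. The SiO2 columns and BLM day 7 replicate 1 are red for most genes, and the BLM day 14 columns are blue for most.

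Against the untreated fibroblasts, silica gave 17 members higher and 1 lower on day 7, where 23.4% of all tested genes were higher and 20.6% lower. On day 14 it gave 23 higher and 0 lower, against 13.6% and 10.5% of all genes. On day 63 it gave 16 higher and 1 lower, against 15.3% and 12.5%. The median log2 fold change of the members was 0.90, 1.09 and 0.57 on the 3 days, beside 0.04, 0.03 and 0.02 over all genes. The split of all calls on day 14 depended on the scaling: 56.4% of them were higher under TMM and 44.8% under upper quartile scaling, where 21 members were higher and 0 lower. Higher in all 3 silica groups were 16 members: Isg15, Ifit1, Ifit3, Ifi44, Ddx58, Dhx58, Irf7, Oasl2, Oas1a, Mx1, Mx2, Rsad2, Usp18, Zbp1, Parp9 and Bst2. The 3 comparisons use the same 3 untreated libraries, and the share of all genes higher in all 3 was not counted.

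Without 1 library at a time, 16 of the 18 calls on SiO2 day 7, 19 of the 23 on day 14 and 13 of the 17 on day 63 held in every case. On day 7 the call was lost by Mx1 without untreated replicate 2 or 3 or SiO2 day 7 replicate 2 or 3 (edgeR adjusted p up to 0.235) and by Mx2 without untreated replicate 2 or 3 or SiO2 day 7 replicate 2 or 3 (edgeR adjusted p up to 0.0959). On day 14 it was lost by Parp14 without untreated replicate 1, 2 or 3 or SiO2 day 14 replicate 1 or 2 (edgeR adjusted p up to 0.141), by Cmpk2 without untreated replicate 2 or SiO2 day 14 replicate 1 (edgeR adjusted p up to 0.0695), by Samd9l without untreated replicate 2 or 3 or SiO2 day 14 replicate 1 or 2 (edgeR adjusted p up to 0.207) and by Rtp4 without untreated replicate 2 or 3 or SiO2 day 14 replicate 1 or 2 (edgeR adjusted p up to 0.138). On day 63 it was lost by Irf1 without untreated replicate 2 or SiO2 day 63 replicate 2 (edgeR adjusted p up to 0.0765), by Irf7 without untreated replicate 2 or SiO2 day 63 replicate 3 (edgeR adjusted p up to 0.0937), by Zbp1 without untreated replicate 2 or 3 or SiO2 day 63 replicate 1, 2 or 3 (edgeR adjusted p up to 0.151) and by Bst2 without untreated replicate 2 or 3 or SiO2 day 63 replicate 1 or 3 (edgeR adjusted p up to 0.223).

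On BLM day 7, 14 were higher and 1 lower than untreated, where 16.7% of all genes were higher and 14.9% lower. On BLM day 14, 0 were higher and 11 lower, against 20.7% and 18.5%, and on BLM day 63, 0 were higher and 3 lower, against 6.02% and 5.48%. The members' median log2 fold change was 0.61, -0.63 and -0.36 on the 3 days, beside 0.02, 0.02 and 0.01 over all genes. The 11 lower on BLM day 14 were Ifit2, Ifi35, Stat2, Mx1, Xaf1, Parp14, Trim25, Bst2, Cmpk2, Samd9l and Herc6, and the 3 lower on BLM day 63 were Ifit2, Stat2 and Zbp1. On day 14 the call was lost by Mx1 without untreated replicate 1 or BLM day 14 replicate 1 or 2 (edgeR adjusted p up to 0.338), by Xaf1 without untreated replicate 1 (edgeR adjusted p = 0.0537), by Trim25 without BLM day 14 replicate 2 (edgeR adjusted p = 0.0973) and by Bst2 without untreated replicate 1 or BLM day 14 replicate 1 or 3 (edgeR adjusted p up to 0.313). On day 63 it was lost by Ifit2 without untreated replicate 1, 2 or 3 or BLM day 63 replicate 2 or 3 (edgeR adjusted p up to 0.0961).

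Set directly against each other with all libraries, the models were separated by 1 of these genes on day 7 and by most of them on day 14. Without BLM day 7 replicate 1, 7 members were higher in silica on day 7, where 3.61% of all genes were. Their median log2 difference over all tested members was then 0.57 in place of 0.10. The counts that follow use all libraries unless 1 is named as left out. On day 7, 1 member (Parp9) was higher in silica than in bleomycin and 0 were lower, where 5.29% of all genes were higher and 5.10% lower, and the members' log2 differences ran from -0.30 to 0.68, which does not show that the models were alike on that day. On day 14, 29 were higher and 0 lower, against 9.06% and 8.03% of all genes, and the median log2 difference was 1.70 beside a median at 0 over all genes. On day 63, 21 were higher and 1 (Irf1) was lower, against 9.13% and 6.44%, with a median of 0.94. In 30 of the 32 members every SiO2 day 14 library lay above every BLM day 14 library, as did 16.2% of all genes. All 29 calls on day 14 held when any 1 library was left out. On day 63 the call was lost by Xaf1 without BLM day 63 replicate 2 or 3 or SiO2 day 63 replicate 1 or 3 (edgeR adjusted p up to 0.123), by Parp14 without BLM day 63 replicate 2 or 3 or SiO2 day 63 replicate 3 (edgeR adjusted p up to 0.0829), by Dtx3l without BLM day 63 replicate 3 or SiO2 day 63 replicate 2 (edgeR adjusted p up to 0.111) and by Rtp4 without BLM day 63 replicate 1 or 2 or SiO2 day 63 replicate 2 or 3 (edgeR adjusted p up to 0.182). On day 7 it was lost by Parp9 without SiO2 day 7 replicate 3 (edgeR adjusted p = 0.0717).

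**Figure D2:**
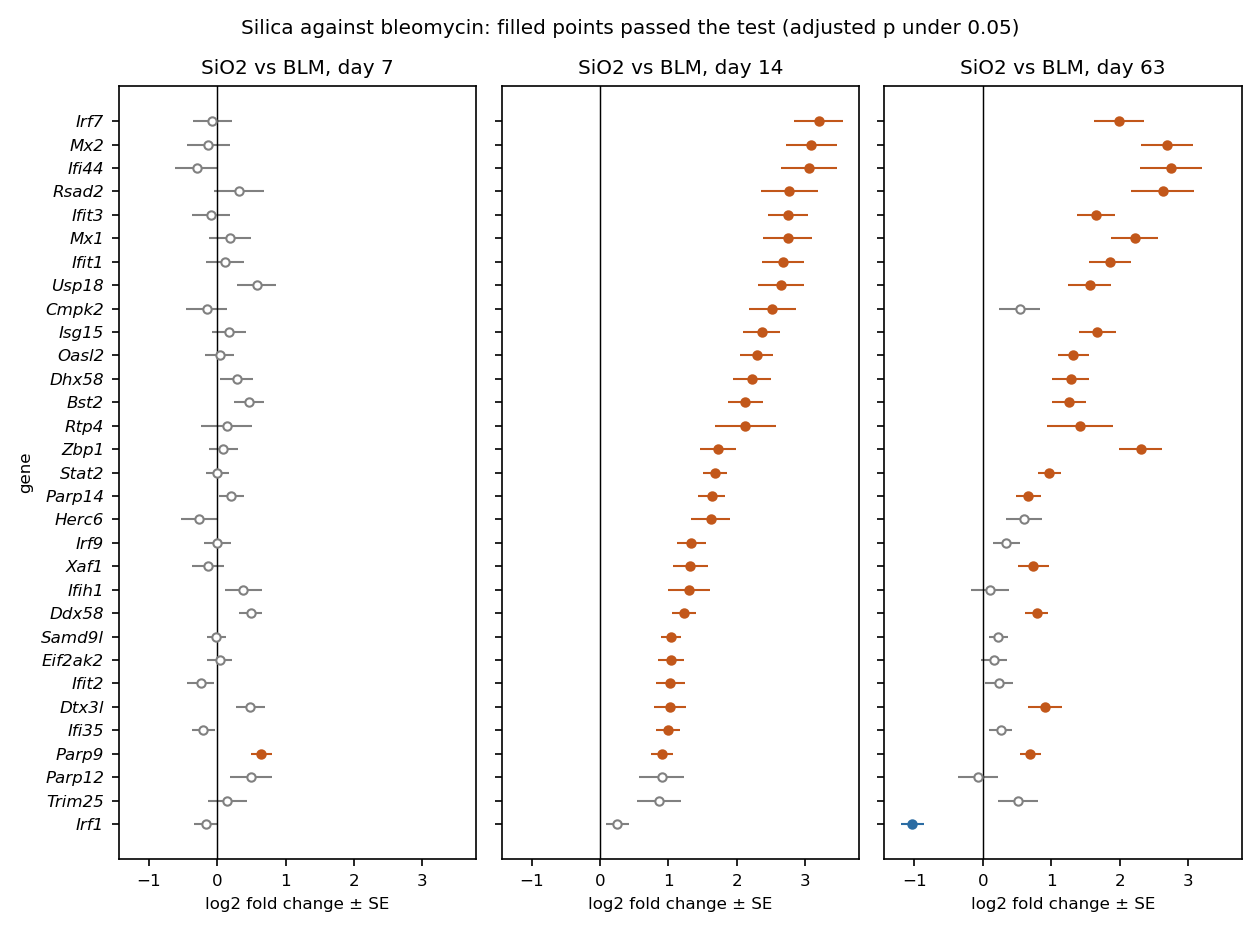
Log2 fold change (± SE) of SiO2 against BLM on days 7, 14 and 63 for 31 tested members, sorted by day 14; Oas1a is left out because its BLM day 63 counts are 0, and filled points passed the test. On day 7 the points lie around 0, on day 14 all lie to the right of it, from 0.25 (Irf1) to 3.19 (Irf7), and on day 63 Irf1 alone of the filled points lies to the left.

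Among the sensors of nucleic acid, 3 of 4 (Ddx58, Dhx58 and Zbp1) were higher than untreated in every silica group. Over all genes, 23.4%, 13.6% and 15.3% were higher on SiO2 days 7, 14 and 63, and the share higher on every day was not counted. All 4 sensors were higher on SiO2 day 14 than on BLM day 14, where 9.06% of all genes were. Ddx58 encodes RIG-I, which detects viral RNA in the cytoplasm. Ddx58 measured 26.4, 27.6 and 27.2 CPM in the untreated libraries, 43.0, 32.8 and 32.3 on BLM day 7, 21.2, 28.7 and 20.2 on BLM day 14 and 27.4, 29.0 and 28.9 on BLM day 63. In silica it measured 40.9, 51.5 and 59.2 CPM on SiO2 day 7, 68.6, 52.5 and 44.2 on SiO2 day 14 and 43.4, 45.5 and 57.9 on SiO2 day 63. All 9 silica libraries lay above all untreated, BLM day 14 and BLM day 63 libraries. The log2 fold change against untreated was 1.02 ± 0.17 (SE, edgeR adjusted p = 4.31e-05) on SiO2 day 14 and 0.41 ± 0.18 (SE, edgeR adjusted p = 0.0819) on BLM day 7. Dhx58 encodes LGP2, a helicase that tunes RIG-I and its relative Ifih1. Dhx58 measured 9.84, 8.79 and 7.49 CPM in the untreated libraries, 40.0, 20.1 and 16.5 on BLM day 7, 11.7, 8.37 and 6.91 on BLM day 14 and 10.2, 10.3 and 11.6 on BLM day 63. The silica libraries measured 21.8, 35.1 and 36.7 CPM on SiO2 day 7, 52.0, 41.3 and 31.3 on SiO2 day 14 and 20.0, 34.3 and 24.3 on SiO2 day 63. The BLM day 7 and silica libraries were all above the untreated ones, while BLM day 14 overlapped them and BLM day 63 lay just above. On SiO2 day 14 the log2 fold change was 2.22 ± 0.28 (SE, edgeR adjusted p = 5.28e-07) against untreated and 2.22 ± 0.28 (SE, edgeR adjusted p = 7.27e-07) against BLM day 14.

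Zbp1 senses nucleic acid in the Z conformation and can start necroptosis. Zbp1 measured 15.5, 12.3 and 10.3 CPM in the untreated libraries, 68.5, 31.7 and 34.5 on BLM day 7, 8.48, 11.3 and 12.7 on BLM day 14 and 3.98, 5.17 and 3.78 on BLM day 63. Zbp1 in silica measured 33.9, 51.5 and 58.2 CPM on SiO2 day 7, 41.9, 38.9 and 28.4 on SiO2 day 14 and 20.0, 24.2 and 19.6 on SiO2 day 63. Its silica and BLM day 7 libraries were above all untreated ones, and its BLM day 63 libraries were below them. It was the only sensor lower than untreated in a bleomycin group, by a log2 fold change of -1.60 ± 0.34 (SE, edgeR adjusted p = 0.00174), and on day 63 SiO2 exceeded BLM by 2.31 ± 0.31 (SE, edgeR adjusted p = 1.87e-06). It was also lower on BLM day 63 than on BLM day 14, by -1.36 ± 0.35 (SE, edgeR adjusted p = 0.00331). Ifih1, the sensor of long double-stranded RNA, ran from 4.59 to 17.2 CPM over all libraries and was called in no comparison with untreated; on SiO2 day 14 it exceeded BLM day 14 by 1.30 ± 0.30 (SE, edgeR adjusted p = 0.00241).

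The 4 transcription factors took separate courses. Irf7, the factor that amplifies type I interferon production, followed the sensors. Irf7 measured 16.1, 8.29 and 9.83 CPM in the untreated libraries, 57.5, 19.8 and 24.7 on BLM day 7, 4.94, 8.37 and 4.97 on BLM day 14 and 3.98, 9.18 and 6.00 on BLM day 63. Its silica libraries measured 20.6, 39.9 and 36.7 CPM on SiO2 day 7, 73.7, 51.7 and 44.2 on SiO2 day 14 and 19.4, 26.6 and 28.7 on SiO2 day 63. All silica and BLM day 7 libraries lay above the untreated ones. Irf7 had the largest log2 difference between SiO2 and BLM on day 14 of all 32 members, 3.19 ± 0.36 (SE, edgeR adjusted p = 7.13e-08), and stood at 2.28 ± 0.32 (SE, edgeR adjusted p = 2.73e-06) against untreated. From SiO2 day 14 to day 63 it fell by 1.17 ± 0.28 on the log2 scale (SE, edgeR adjusted p = 0.0151). Stat2, which forms the interferon-activated complex with Irf9, differed between the models without passing the test against untreated in silica. Stat2 measured 224, 174 and 145 CPM in the untreated libraries, 239, 118 and 155 on BLM day 7, 59.7, 79.2 and 71.0 on BLM day 14 and 98.6, 74.3 and 86.3 on BLM day 63. After silica it measured 165, 190.0 and 157 CPM on SiO2 day 7, 237, 215 and 225 on SiO2 day 14 and 186, 154 and 169.8 on SiO2 day 63. The BLM day 14 and day 63 libraries were all below the untreated ones, and the silica libraries of every day overlapped them. The log2 fold change against untreated was -1.38 ± 0.18 (SE, edgeR adjusted p = 2.36e-07) on BLM day 14, -1.07 ± 0.17 (SE, edgeR adjusted p = 7.47e-05) on BLM day 63 and 0.31 ± 0.17 (SE, edgeR adjusted p = 0.191) on SiO2 day 14.

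Irf9, the DNA-binding partner in that complex, ranged less. Irf9 measured 15.5, 13.3 and 11.7 CPM in the untreated libraries, 24.4, 12.2 and 19.3 on BLM day 7, 8.48, 9.86 and 9.95 on BLM day 14 and 13.4, 12.6 and 12.9 on BLM day 63. In silica it measured 17.1, 20.99 and 17.7 CPM on SiO2 day 7, 22.6, 26.4 and 22.8 on SiO2 day 14 and 17.4, 18.6 and 13.8 on SiO2 day 63. On SiO2 day 14 its libraries were above all untreated ones, with a log2 fold change of 0.80 ± 0.20 (SE, edgeR adjusted p = 0.00293); the other silica days were not called. Irf9 overlaps Rnf31 on the same strand. Irf1, a factor best known as an immediate target of interferon gamma, went its own way. Irf1 measured 191, 245 and 223 CPM in the untreated libraries, 159.9, 124 and 143 on BLM day 7, 162, 161 and 250.1 on BLM day 14 and 321, 275 and 314 on BLM day 63. The silica libraries measured 115, 130.4 and 137 CPM on SiO2 day 7, 221, 153 and 309 on SiO2 day 14 and 161, 140.3 and 144 on SiO2 day 63. On BLM day 7, SiO2 day 7 and SiO2 day 63 all libraries were below the untreated ones, on BLM day 63 all were above them, and both day 14 groups spread across the untreated range. Its log2 fold change against untreated was -0.63 ± 0.17 (SE, edgeR adjusted p = 0.00572) on BLM day 7, -0.78 ± 0.17 (SE, edgeR adjusted p = 0.000432) on SiO2 day 7, -0.56 ± 0.17 (SE, edgeR adjusted p = 0.0128) on SiO2 day 63 and 0.47 ± 0.17 (SE, edgeR adjusted p = 0.0707) on BLM day 63, where it was not called. Between the models on day 63 it was lower in silica, by -1.03 ± 0.17 (SE, edgeR adjusted p = 4.32e-05), opposite in sign to the 21 members that were higher.

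**Figure D3:**
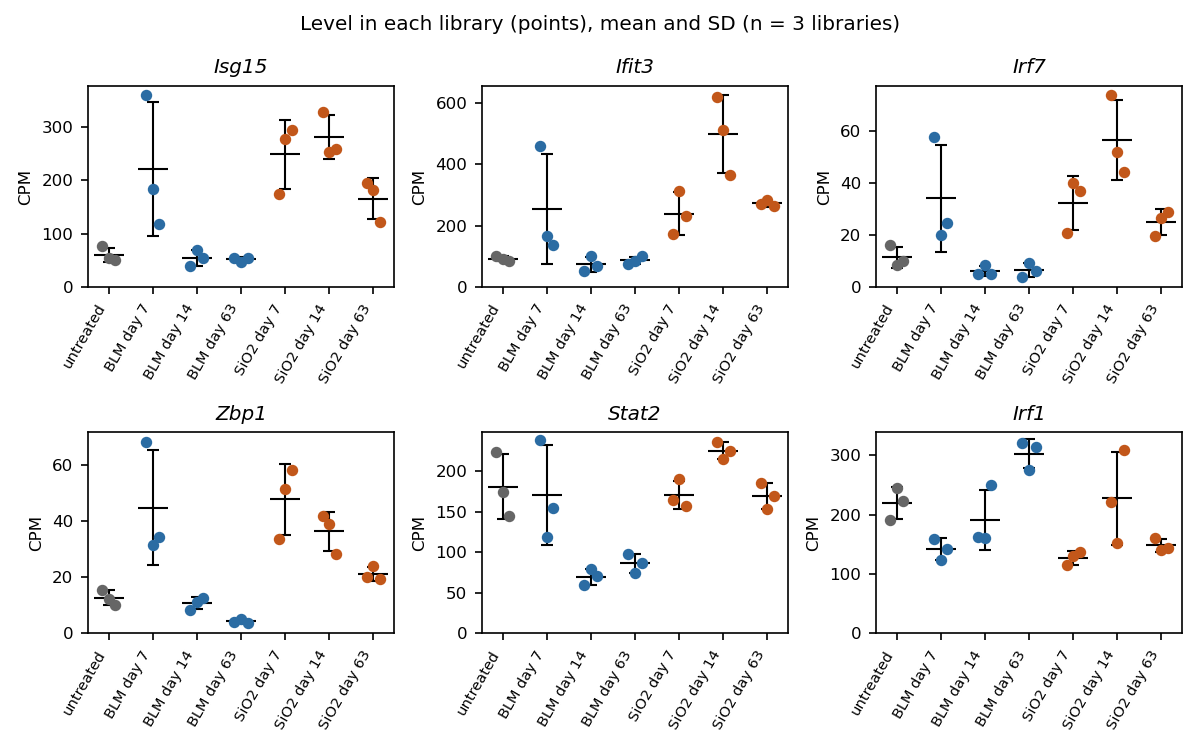
CPM of Isg15, Ifit3, Irf7, Zbp1, Stat2 and Irf1 in each library (points), with the group mean and SD (n = 3 libraries); grey is untreated, blue BLM and orange SiO2. In the first 4 genes 1 BLM day 7 point, replicate 1, lies far above the other 2, Stat2 is lowest on BLM days 14 and 63, and Irf1 is highest on BLM day 63.

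Of the genes of ubiquitin-like modification, Isg15 and its protease Usp18 were higher than untreated in all silica groups and on BLM day 7, and the ligases Herc6 and Trim25 in none. Isg15 is a ubiquitin-like protein that is attached to other proteins after interferon. Isg15 measured 75.9, 54.8 and 50.1 CPM in the untreated libraries, 361, 184 and 118 on BLM day 7, 39.2, 69.6 and 53.6 on BLM day 14 and 54.8, 46.5 and 54.0 on BLM day 63. Isg15 in silica measured 175, 277 and 295 CPM on SiO2 day 7, 328, 254 and 259.7 on SiO2 day 14 and 195, 181 and 122 on SiO2 day 63. Every silica and BLM day 7 library exceeded every untreated library, and the BLM day 14 and day 63 libraries overlapped the untreated ones. The log2 fold change against untreated was 2.03 ± 0.27 (SE, edgeR adjusted p = 2.2e-07) on SiO2 day 7, 2.203 ± 0.27 (SE, edgeR adjusted p = 2.08e-07) on SiO2 day 14 and 1.44 ± 0.27 (SE, edgeR adjusted p = 8.97e-05) on SiO2 day 63. Usp18 removes Isg15 from its targets and damps signalling at the interferon receptor. Usp18 measured 4.66, 5.78 and 6.55 CPM in the untreated libraries, 24.9, 14.5 and 10.8 on BLM day 7, 2.47, 9.86 and 3.59 on BLM day 14 and 7.96, 6.31 and 9.56 on BLM day 63. Its silica libraries measured 16.8, 29.0 and 29.6 CPM on SiO2 day 7, 46.6, 33.3 and 22.6 on SiO2 day 14 and 19.4, 26.4 and 25.4 on SiO2 day 63. Its silica libraries were all above every untreated and every later bleomycin library. Against untreated its log2 fold change was 2.61 ± 0.34 (SE, edgeR adjusted p = 7.75e-07) on SiO2 day 14.

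Herc6 is the main ligase for Isg15 in the mouse. Herc6 measured 32.1, 23.1 and 30.9 CPM in the untreated libraries, 47.9, 20.3 and 16.2 on BLM day 7, 8.83, 14.3 and 9.95 on BLM day 14 and 24.1, 23.2 and 16.0 on BLM day 63. After silica it measured 21.3, 28.7 and 20.5 CPM on SiO2 day 7, 36.9, 36.0 and 29.6 on SiO2 day 14 and 28.6, 26.6 and 39.8 on SiO2 day 63. The BLM day 14 libraries lay wholly below the untreated ones, with a log2 fold change of -1.36 ± 0.30 (SE, edgeR adjusted p = 0.000467). Trim25, a ligase that activates RIG-I, ran from 2.09 to 9.85 CPM over all libraries and was likewise lower on BLM day 14, by -1.03 ± 0.32 (SE, edgeR adjusted p = 0.0121).

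Of the 6 tested genes that act on RNA or translation, 5 were higher than untreated on SiO2 day 14, where 13.6% of all genes were. All 6 were higher on SiO2 day 14 than on BLM day 14, where 9.06% of all genes were. Ifit3 stabilises Ifit1, which binds viral RNA that lacks the methylated cap of host messages. Ifit1 measured 95.8, 78.1 and 72.6 CPM in the untreated libraries, 409, 134 and 122 on BLM day 7, 25.1, 70.5 and 53.9 on BLM day 14 and 44.8, 39.6 and 56.3 on BLM day 63. In silica it measured 202, 276 and 243 CPM on SiO2 day 7, 371, 332 and 263 on SiO2 day 14 and 168, 183 and 161 on SiO2 day 63. For Ifit3 the values were 102, 91.4 and 84.3 CPM in the untreated libraries, 459, 166 and 138 on BLM day 7, 52.6, 101 and 68.0 on BLM day 14 and 75.7, 83.8 and 99.4 on BLM day 63. Its silica values were 171, 313 and 232 CPM on SiO2 day 7, 618, 512 and 363 on SiO2 day 14 and 269, 284 and 263 on SiO2 day 63. In both genes every silica and BLM day 7 library exceeded every untreated library, and for Ifit1 every library of BLM days 14 and 63 was below the untreated ones without passing the test. Against BLM day 14, SiO2 day 14 stood higher by 2.68 ± 0.31 (SE, edgeR adjusted p = 1.11e-07) for Ifit1 and 2.75 ± 0.29 (SE, edgeR adjusted p = 3.57e-08) for Ifit3. Ifit2, another member of the family, was not higher than untreated in any group. Ifit2 measured 33.4, 32.7 and 35.1 CPM in the untreated libraries, 45.0, 25.9 and 18.1 on BLM day 7, 11.7, 18.5 and 15.2 on BLM day 14 and 23.4, 18.9 and 20.7 on BLM day 63. The silica libraries measured 25.6, 24.2 and 25.8 CPM on SiO2 day 7, 31.5, 32.0 and 29.9 on SiO2 day 14 and 25.0, 25.6 and 23.8 on SiO2 day 63. All silica libraries lay just below the untreated ones, and BLM days 14 and 63 further below. It was lower than untreated by -1.14 ± 0.21 (SE, edgeR adjusted p = 7.45e-05) on BLM day 14 and was called in no silica group; on SiO2 day 14 the value was -0.11 ± 0.19 (SE, edgeR adjusted p = 0.736). The 3 Ifit genes lie within 200 kb of each other on chromosome 19.

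Oasl2 is a relative of the oligoadenylate synthetases, whose product activates the nuclease RNase L. Oasl2 measured 26.7, 20.9 and 18.7 CPM in the untreated libraries, 76.0, 40.4 and 32.0 on BLM day 7, 15.2, 17.3 and 13.5 on BLM day 14 and 19.4, 14.6 and 21.6 on BLM day 63. Oasl2 in silica measured 42.4, 57.9 and 52.4 CPM on SiO2 day 7, 89.7, 75.7 and 61.0 on SiO2 day 14 and 36.5, 51.4 and 52.3 on SiO2 day 63. Every silica and BLM day 7 library lay above every untreated library. The log2 fold change was 1.75 ± 0.23 (SE, edgeR adjusted p = 7.55e-07) on SiO2 day 14. Oas1a, a synthetase, was near the detection limit without injury, with 3, 0 and 0 counts in the untreated libraries and 0 in each BLM day 63 library. It had 14, 7 and 7 counts on BLM day 7 and 5, 1 and 1 on BLM day 14. In silica it had 14, 11 and 26 counts on day 7, 25, 18 and 22 on day 14 and 16, 21 and 25 on day 63. Over a group's summed counts SiO2 day 14 stood 19.2-fold above untreated (95% exact counting interval 6.3 to 95.7), and SiO2 day 63 stood at least 20.6-fold higher than BLM day 63, against a floor of 3 counts over the group. The untested synthetases had few counts: over their 3 libraries Oasl1 had 1 in untreated, 16 on SiO2 day 14 and 0 on BLM day 63, Oas2 had 4, 15 and 1, and Oas3 had 3, 8 and 3. At this depth a difference in Oas3 between untreated and SiO2 day 14 was not detectable. Eif2ak2 encodes the kinase PKR, which halts translation on binding double-stranded RNA. Eif2ak2 measured 16.6, 14.6 and 12.6 CPM in the untreated libraries, 19.1, 18.2 and 14.3 on BLM day 7, 12.0, 11.3 and 11.9 on BLM day 14 and 11.9, 11.8 and 14.2 on BLM day 63. Its silica libraries measured 16.6, 20.5 and 16.2 CPM on SiO2 day 7, 28.5, 26.1 and 18.2 on SiO2 day 14 and 15.0, 14.1 and 13.6 on SiO2 day 63. Its SiO2 day 14 libraries were above all untreated ones, at 0.70 ± 0.18 (SE, edgeR adjusted p = 0.00436), and the other groups were not called.

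All 7 genes listed as effectors of virus replication and release were higher on SiO2 day 14 than untreated, where 13.6% of all genes were. All 7 were also higher than on BLM day 14, where 9.06% of all genes were. The calls of Cmpk2, Samd9l and Rtp4 against untreated were lost without certain single libraries, as given above. From BLM day 7 to day 14 all 7 fell, where 4.82% of all genes did. Mx1, Rsad2 and Rtp4 lost that call without BLM day 7 replicate 1. Bst2, or tetherin, holds budding virus particles at the cell surface. Bst2 measured 29.8, 14.8 and 15.0 CPM in the untreated libraries, 51.6, 29.1 and 29.8 on BLM day 7, 8.83, 14.3 and 10.5 on BLM day 14 and 10.9, 11.8 and 17.3 on BLM day 63. After silica it measured 40.6, 53.7 and 58.2 CPM on SiO2 day 7, 52.3, 53.8 and 42.3 on SiO2 day 14 and 33.1, 26.4 and 37.4 on SiO2 day 63. On SiO2 days 7 and 14 all libraries were above the untreated ones and on BLM day 14 all were below. Its log2 fold change against untreated was 1.28 ± 0.24 (SE, edgeR adjusted p = 0.000124) on SiO2 day 14 and -0.85 ± 0.28 (SE, edgeR adjusted p = 0.0178) on BLM day 14. Rsad2 encodes viperin, which makes a nucleotide that stops viral RNA synthesis. Rsad2 measured 2.85, 4.02 and 1.87 CPM in the untreated libraries, 16.5, 4.75 and 6.66 on BLM day 7, 2.47, 4.48 and 2.76 on BLM day 14 and 1.24, 2.87 and 1.78 on BLM day 63. In silica it measured 5.52, 13.8 and 15.4 CPM on SiO2 day 7, 30.0, 23.2 and 14.6 on SiO2 day 14 and 9.46, 10.1 and 16.2 on SiO2 day 63. The silica and BLM day 7 libraries were all above the untreated ones. On SiO2 day 14 the log2 fold change was 2.85 ± 0.42 (SE, edgeR adjusted p = 5.21e-06).

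Samd9l, a restriction factor of poxviruses, moved by less. Samd9l measured 96.4, 71.3 and 81.9 CPM in the untreated libraries, 118, 77.4 and 86.2 on BLM day 7, 47.0, 64.0 and 49.2 on BLM day 14 and 80.6, 109 and 87.8 on BLM day 63. The silica libraries measured 90.3, 99.6 and 89.1 CPM on SiO2 day 7, 118, 108 and 104 on SiO2 day 14 and 108, 118 and 97.0 on SiO2 day 63. The SiO2 day 14 libraries were above and the BLM day 14 libraries below all untreated ones. The log2 fold changes were 0.40 ± 0.14 (SE, edgeR adjusted p = 0.0411) and -0.64 ± 0.15 (SE, edgeR adjusted p = 0.00114). Mx1 and Mx2, genes of the dynamin-like GTPase family, ran from 3.52 to 8.29 and 2.34 to 4.66 CPM in untreated fibroblasts. GENCODE vM21 types Mx2 as a polymorphic pseudogene, and whether these mice make working Mx protein was not tested. On SiO2 day 14 they ran from 13.6 to 20.5 and 14.1 to 17.1 CPM, and on BLM day 14 from 1.41 to 3.04 and 0.706 to 2.76. The SiO2 day 14 and BLM day 14 libraries did not overlap in either gene, and SiO2 day 14 exceeded BLM day 14 by 2.74 ± 0.36 (SE, edgeR adjusted p = 1.13e-06) for Mx1 and 3.09 ± 0.38 (SE, edgeR adjusted p = 3.48e-07) for Mx2. Cmpk2, a nucleotide kinase gene beside Rsad2 on chromosome 12, and Rtp4, which binds viral RNA, were higher than untreated on SiO2 day 14 alone of the silica days, by 1.01 and 1.17 on the log2 scale. Against BLM day 14 the log2 differences were 2.52 and 2.12. Higher on SiO2 day 14 and lower on BLM day 14 than untreated were 5 members: Mx1, Parp14, Bst2, Cmpk2 and Samd9l. None of them kept both calls in every leave-out, as given above. Mx1 and Bst2 lost the call on BLM day 14 without certain single libraries. Parp14, Cmpk2 and Samd9l lost the call on SiO2 day 14. Both calls use the same untreated libraries, and the share of all genes with this pattern was not counted.

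Parp9 and its partner Dtx3l, an ADP-ribosyl and ubiquitin ligase pair that enhances interferon signalling, were both higher than untreated on SiO2 days 7 and 14. Parp9 measured 44.8, 43.7 and 57.1 CPM in the untreated libraries, 91.4, 62.9 and 67.8 on BLM day 7, 48.7, 66.0 and 58.3 on BLM day 14 and 58.7, 51.1 and 61.6 on BLM day 63. Parp9 in silica measured 88.3, 120.1 and 139.5 CPM on SiO2 day 7, 130.2, 105 and 92.1 on SiO2 day 14 and 90.7, 94.2 and 93.3 on SiO2 day 63. All silica libraries were above the untreated, BLM day 14 and BLM day 63 libraries. The log2 fold change was 1.27 ± 0.16 (SE, edgeR adjusted p = 1.41e-07) on SiO2 day 7, and Parp9 was the member called between the models on day 7, at 0.65 ± 0.15 (SE, edgeR adjusted p = 0.00482), although SiO2 day 7 replicate 1 lay below BLM day 7 replicate 1. Dtx3l measured 13.7, 8.29 and 6.55 CPM in the untreated libraries, 17.1, 12.2 and 15.5 on BLM day 7, 11.3, 7.77 and 8.29 on BLM day 14 and 6.97, 7.75 and 6.00 on BLM day 63. Its silica libraries measured 19.8, 19.7 and 23.04 CPM on SiO2 day 7, 17.2, 21.1 and 16.8 on SiO2 day 14 and 11.6, 17.3 and 10.2 on SiO2 day 63. On SiO2 days 7 and 14 all its libraries were above the untreated ones. On SiO2 day 7 its log2 fold change was 1.08 ± 0.23 (SE, edgeR adjusted p = 0.000291). Parp14, a mono-ADP-ribosyltransferase beside them on chromosome 16, rose on SiO2 day 14 and fell on BLM day 14. Parp14 measured 121, 109 and 96.9 CPM in the untreated libraries, 164, 87.2 and 77.0 on BLM day 7, 39.5, 59.5 and 50.9 on BLM day 14 and 97.8, 76.3 and 80.5 on BLM day 63. After silica it measured 106, 141 and 133 CPM on SiO2 day 7, 169, 156 and 143 on SiO2 day 14 and 112, 135 and 155 on SiO2 day 63. The SiO2 day 14 libraries were above and the BLM day 14 libraries below all untreated ones, with log2 fold changes of 0.51 ± 0.18 (SE, edgeR adjusted p = 0.0414) and -1.13 ± 0.20 (SE, edgeR adjusted p = 3.07e-05). Parp12, a zinc finger relative, ran from 2.82 to 9.33 CPM over all libraries and was called in none of the 13 comparisons.

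Ifi44, a cytoplasmic interferon-induced protein, was among the members that rose most. It ran from 0.936 to 2.85 CPM in untreated fibroblasts, 9.19 to 23.8 on BLM day 7, 1.41 to 2.76 on BLM day 14 and 13.8 to 22.3 on SiO2 day 14. BLM day 7 and SiO2 day 14 were far above the other pair, which overlapped, and SiO2 day 14 stood at 2.96 ± 0.41 (SE, edgeR adjusted p = 1.95e-06) against untreated. Ifi35, which pairs with Nmi, was not raised. Ifi35 measured 64.5, 56.3 and 41.7 CPM in the untreated libraries, 81.5, 44.4 and 58.9 on BLM day 7, 29.3, 33.2 and 33.4 on BLM day 14 and 47.0, 46.5 and 60.3 on BLM day 63. In silica it measured 50.9, 62.7 and 46.8 CPM on SiO2 day 7, 70.7, 58.4 and 62.7 on SiO2 day 14 and 53.6, 68.4 and 62.5 on SiO2 day 63. The BLM day 14 libraries were below all untreated ones, by -0.78 ± 0.18 (SE, edgeR adjusted p = 0.00109), and no silica group was called. Xaf1, a partner of the apoptosis inhibitor Xiap, was also lower, with -0.94 ± 0.27 (SE, edgeR adjusted p = 0.00561) on BLM day 14.

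The 9 members higher than untreated in no group were Ifit2, Ifi35, Ifih1, Irf1, Stat2, Xaf1, Parp12, Trim25 and Herc6. All but Irf1, Parp12 and Trim25 were nevertheless higher on SiO2 day 14 than on BLM day 14, where 9.06% of all genes were. Of the 9, 6 (Ifit2, Ifi35, Stat2, Xaf1, Trim25 and Herc6) were lower than untreated on BLM day 14, where 18.5% of all genes were. The 9 were picked by comparisons with the same untreated libraries, so this count of lower members only describes them. The promoter matches can be set beside these values. Among the members tested, the log2 difference between SiO2 and BLM on day 14 had a median of 2.24 in the 10 with the response element (1.04 to 2.96) and 1.18 in the 14 with a window but no match (0.25 to 3.19). Irf7, with the largest difference, had no match in its window. The tested members without a window, from 0.91 (Parp9) to 3.09 (Mx2), are in neither median. The ranges overlapped, and whether members with and without the element differ was not tested.

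BLM day 7 replicate 1 was higher than both its partners in 31 of the 32 tested members, as it was in 35.1% of all tested genes. Its median log2 ratio to the mean of the other 2 libraries was 1.01 over the members and -0.01 over all tested genes. In no other library did the members' median ratio exceed 0.34. Over the 6246 genes with a mean of at least 10 CPM on BLM day 7, 8 members were among the 20 with the largest ratio: Ifit1, Ifit3, Herc6, Irf7, Ifi44, Isg15, Cmpk2 and Dhx58. Ifit1 stood 3.19-fold and Ifit3 3.03-fold above their partners' mean, beside 3.57-fold for the acute-phase gene Saa3, which led the ranking. Another 4 of the 20 were Gbp3, Gbp5, Gbp9 and Phf11d, which belong to other lists of interferon-induced genes used here. The 8 in none of the lists were Saa3, Mpeg1, I830012O16Rik, Apod, Fxyd3, Trim12a, Sp110 and Znfx1, and RefSeq names I830012O16Rik as Ifit3b, a copy beside Ifit3. The 11 myeloid markers summed to 28.4 CPM in this library, the lowest of the 3 on BLM day 7, where the others had 36.7 and 46.6 CPM. Only 3 of these 11 passed the filter on low counts. Mpeg1, a macrophage-expressed gene outside that list, went the other way, with 19.2 CPM in this library against 5.81 and 6.34 in its partners. Markers of pericytes and smooth muscle were also lowest in this library (78.6 CPM against 148 and 143). Mesothelial markers (375 CPM against 324 and 269) and epithelial markers (33.7 against 29.3 and 29.2) were highest in it. So were endothelial markers (18.3 against 15.3 and 11.4) and the scarce lymphocyte markers (2.32 against 1.85 and 0.634).

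**Figure D4:**
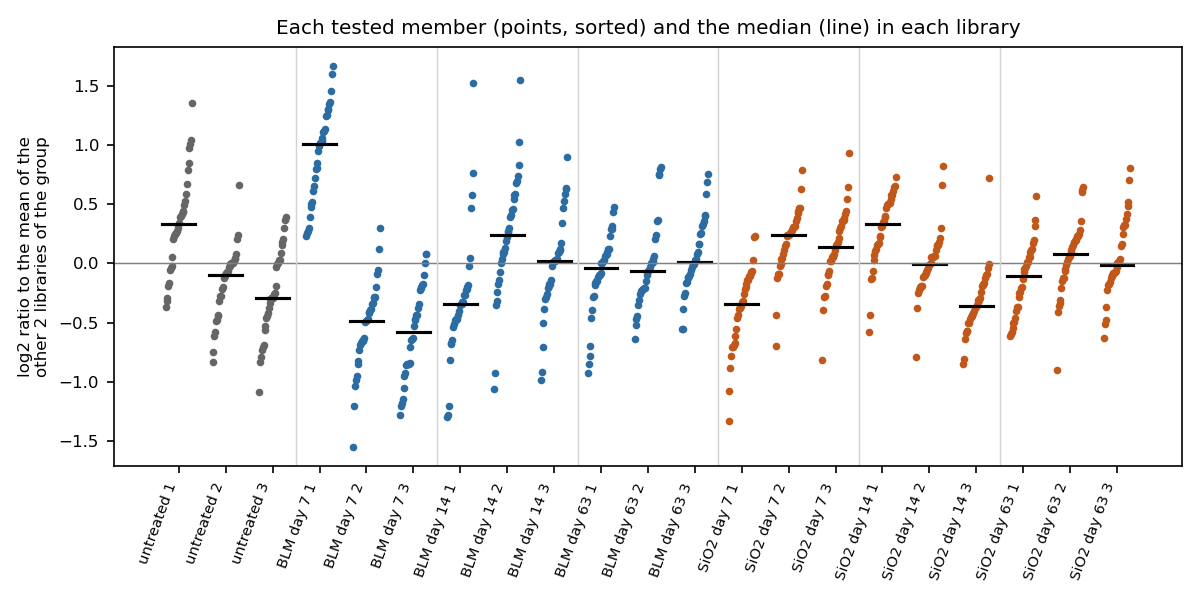
Log2 ratio (0.5 CPM added) of each tested member (points, sorted) in a library to the mean of the other 2 libraries of its group, with the median as a line; libraries are in group order. BLM day 7 replicate 1 has a median of 1.01, and every other library lies between -0.58 and 0.34.

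Without that library, BLM day 7 against untreated gave 11 members higher and 5 lower, where 15.6% and 13.5% of genes were called, and the members' median log2 fold change was 0.23 in place of 0.61. The calls of Mx2, Rsad2 and Bst2 were lost (edgeR adjusted p = 0.208, 0.19 and 0.106), and Ifit2, Stat2, Parp14 and Herc6 were now lower (edgeR adjusted p = 0.00985, 0.0407, 0.0487 and 0.0384). Of the 15 calls with all libraries, 12 were kept, among them Isg15 at 1.31 ± 0.22 and Ifit1 at 0.64 ± 0.21 (log2 fold change ± SE), beside 1.86 ± 0.27 and 1.42 ± 0.29 with it. Leaving out an untreated library ended 2 of the same calls: Mx2 without untreated replicate 2 or 3, and Bst2 without untreated replicate 2 (edgeR adjusted p up to 0.0649). Between the models on day 7, 7 members were then higher in silica (Isg15, Ifit1, Ifih1, Ddx58, Parp9, Parp14 and Bst2), where 3.61% of all genes were, in place of 1, and 0 were lower, where 3.70% of all genes were; the members' median log2 difference was 0.57 in place of 0.10.

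The fall within bleomycin from day 7 to day 14 was called for 24 members and the opposite for 0, where 4.82% of all genes fell and 5.20% rose, and the members' median log2 fold change was -1.42. Without BLM day 7 replicate 1, 15 were called lower, where 2.50% of genes were, 0 higher, where 3.01% were, and the median was -0.87. The 15 included Zbp1 at -2.03 ± 0.26 (SE, edgeR adjusted p = 2.91e-06), Isg15 at -2.02 ± 0.27 (SE, edgeR adjusted p = 5.34e-06) and Stat2 at -1.28 ± 0.18 (SE, edgeR adjusted p = 1.1e-05) with all libraries. The call was lost by Ifit2 without BLM day 7 replicate 1 (edgeR adjusted p = 0.101), by Ddx58 without BLM day 7 replicate 1 or BLM day 14 replicate 1 or 3 (edgeR adjusted p up to 0.184), by Irf9 without BLM day 7 replicate 1 (edgeR adjusted p = 0.0623), by Mx1 without BLM day 7 replicate 1 (edgeR adjusted p = 0.0587), by Rsad2 without BLM day 7 replicate 1 or BLM day 14 replicate 1 or 3 (edgeR adjusted p up to 0.414), by Usp18 without BLM day 7 replicate 1 (edgeR adjusted p = 0.0568), by Xaf1 without BLM day 7 replicate 1 (edgeR adjusted p = 0.106), by Herc6 without BLM day 7 replicate 1 (edgeR adjusted p = 0.102) and by Rtp4 without BLM day 7 replicate 1 or BLM day 14 replicate 1 or 2 (edgeR adjusted p up to 0.236). From BLM day 14 to day 63, 6 members rose (Ifi35, Irf1, Parp14, Cmpk2, Samd9l and Herc6) and 2 fell (Zbp1 and Oas1a), where 15.4% of genes rose and 16.9% fell. The share of the members that rose was close to that of all genes, and 2 of 32 fell. The call was lost by Oas1a without BLM day 14 replicate 1 or BLM day 63 replicate 1, 2 or 3 (edgeR adjusted p up to 0.179), by Cmpk2 without BLM day 14 replicate 1 or 3 or BLM day 63 replicate 2 (edgeR adjusted p up to 0.14) and by Herc6 without BLM day 14 replicate 1 or 3 or BLM day 63 replicate 1 or 2 (edgeR adjusted p up to 0.0812). The count was 5 without BLM day 14 replicate 1. The log2 fold change was 0.78 ± 0.15 (SE, edgeR adjusted p = 0.000128) for Samd9l and 0.66 ± 0.17 (SE, edgeR adjusted p = 0.00284) for Irf1.

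In silica, 8 members rose from day 7 to day 14 (Ifit3, Irf1, Irf7, Oasl2, Mx1, Mx2, Rsad2 and Cmpk2) and 0 fell, where 12.2% and 11.1% of genes did, with a median of 0.40. Ifit3 rose by 1.06 ± 0.27 (SE, edgeR adjusted p = 0.00396), Mx2 by 1.12 ± 0.29 (SE, edgeR adjusted p = 0.00427) and Irf1 by 0.84 ± 0.17 (SE, edgeR adjusted p = 0.000451), and these 3 held without any 1 library. The call was lost by Irf7 without SiO2 day 7 replicate 1 or SiO2 day 14 replicate 1 (edgeR adjusted p up to 0.197), by Oasl2 without SiO2 day 7 replicate 1 or 3 or SiO2 day 14 replicate 1 or 2 (edgeR adjusted p up to 0.201), by Mx1 without SiO2 day 7 replicate 1, 2 or 3 or SiO2 day 14 replicate 1 or 2 (edgeR adjusted p up to 0.194), by Rsad2 without SiO2 day 7 replicate 1 or SiO2 day 14 replicate 1 or 2 (edgeR adjusted p up to 0.2) and by Cmpk2 without SiO2 day 7 replicate 1 or SiO2 day 14 replicate 1 (edgeR adjusted p up to 0.0934). The count was 3 without SiO2 day 14 replicate 1, 4 without SiO2 day 7 replicate 1 and 5 without SiO2 day 14 replicate 2. From day 14 to day 63, 0 rose and 3 fell (Irf1, Irf7 and Eif2ak2), where 1.53% and 2.00% of genes did, with a median of -0.52, and 30 of the 32 values were below 0. The call was lost by Irf1 without SiO2 day 14 replicate 1 or 3 or SiO2 day 63 replicate 1, 2 or 3 (edgeR adjusted p up to 0.342), by Irf7 without SiO2 day 14 replicate 1 or SiO2 day 63 replicate 1 or 2 (edgeR adjusted p up to 0.107) and by Eif2ak2 without SiO2 day 14 replicate 1 or 2 or SiO2 day 63 replicate 3 (edgeR adjusted p up to 0.0826). The count was 0 without SiO2 day 14 replicate 1, 1 without any 1 SiO2 day 63 library and 5 without SiO2 day 14 replicate 3.

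The other genes of the pathway were read from lists of their own. Among 23 tested genes of interferon induction and signalling, SiO2 day 14 against BLM day 14 gave 4 higher and 1 lower, where 9.06% of all tested genes were higher and 8.03% lower; the same shares apply to the lists that follow. Socs1, an inhibitor of Jak kinases, was higher in silica by a log2 fold change of 0.62 (edgeR adjusted p = 0.000474), and Tmem173, which encodes the adaptor of DNA sensing STING, was lower, at -0.64 (edgeR adjusted p = 0.0177). Of the ligands, only Ifnb1 and Ifng were read, and both were scarcely counted. Ifnb1 was at 0 in 20 of the 21 libraries and Ifng did not exceed 2.10 CPM in any. Other interferon genes were not followed.

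**Figure D5:**
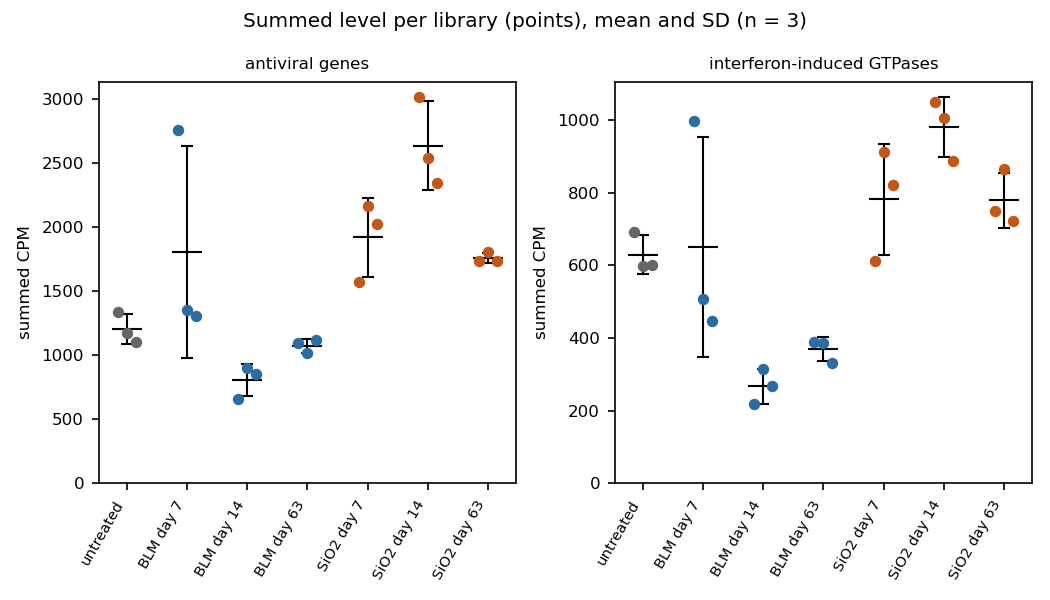
Summed CPM per library (points) with mean and SD (n = 3) for the 35 antiviral genes and the interferon-induced GTPase genes; each vertical axis starts at 0. For the antiviral and GTPase genes the BLM day 14 libraries lie below all untreated ones.

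The interferon-induced GTPases, which attack the membranes around intracellular microbes, were all higher on SiO2 day 14 than on BLM day 14 (16 of 16 tested, median log2 difference 2.04). Gbp3 stood at 2.81 ± 0.24 (SE, edgeR adjusted p = 4.63e-10). Against untreated, 10 of the 16 were lower and 1 higher on BLM day 14, where 18.5% and 20.7% of all genes were, and 9 were higher and 0 lower on SiO2 day 14, where 13.6% and 10.5% were. Of the 21 tested genes of MHC class I and antigen processing, which present peptides to CD8 T cells, 16 were higher and 0 lower between the models on day 14 (median 1.18), B2m by 1.47 ± 0.12 (SE, edgeR adjusted p = 1.54e-10). On BLM day 14, 8 were lower and 3 higher than untreated. Among 35 tested other interferon-stimulated genes, 22 were higher and 1 lower between the models on day 14 (median 1.13), and Ifi27l2a differed by 3.13 ± 0.24 (SE, edgeR adjusted p = 5.64e-11). All 5 tested chemokines that interferon can induce were higher, Cxcl9 by 3.33 ± 0.37 (SE, edgeR adjusted p = 6.13e-08). In bleomycin on day 14, 2 of the 5 (Ccl2 and Ccl5) were above untreated and 0 below. Whether these lists differ from the antiviral genes was not tested.

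Markers of other cell types were set beside these results. The summed myeloid markers ran from 9.84 to 18.3 CPM in untreated libraries, 28.4 to 46.6 on BLM day 7, 21 to 29.3 on BLM day 14 and 5.78 to 12.2 on BLM day 63. In silica they ran from 16.7 to 21.1 CPM on day 7, 33.0 to 57.7 on day 14 and 28.7 to 32.5 on day 63. They were thus higher on SiO2 day 14 and day 63 than in bleomycin on the same days, in the direction of the antiviral genes, and lower on SiO2 day 7 than on BLM day 7. Ptprc, which encodes CD45, did not exceed 1.19 CPM in any library. Siglech, a marker of plasmacytoid dendritic cells, the cells that make most type I interferon, did not exceed 0.297 CPM, and the rest of that list could not serve as a check because it holds the member Bst2 and genes that fibroblasts express. The summed mesothelial markers ran from 515 to 640.0 CPM in untreated libraries, 269 to 375 on BLM day 7 and 126 to 179 on SiO2 day 7. On day 14 they overlapped between the models, with 385 to 439.9 CPM in BLM and 395 to 515 in SiO2, and on day 63 they were lower in SiO2 (222 to 254) than in BLM (354 to 431). The summed markers of pericytes and smooth muscle ran from 35.2 to 41.2 CPM in untreated libraries. They were lower on SiO2 day 14 (80.4 to 101 CPM) than on BLM day 14 (172 to 217), opposite to the antiviral genes, and higher on SiO2 day 63 (114 to 135) than on BLM day 63 (66.5 to 94.1). BLM day 7 replicate 1 had 78.6 CPM of these markers, below the 148 and 143 of its partners, while SiO2 day 7 had 155 to 196. The 6 endothelial markers, of which 2 passed the filter, summed to 21.9 to 30.9 CPM in untreated libraries. They were higher on SiO2 day 14 (13.4 to 27.0 CPM) than on BLM day 14 (6.71 to 9.95), in the direction of the antiviral genes. On day 7 they overlapped between the models (4.56 to 12.3 CPM in SiO2, 11.4 to 18.3 in BLM), as on day 63 (12.8 to 14.7 and 10.7 to 17.7). The 9 epithelial markers, of which 2 passed the filter, summed to 7.77 to 13.1 CPM in untreated libraries. They fell from 29.2 to 33.7 CPM on BLM day 7 to 6.91 to 8.67 on BLM day 14, in the direction of the antiviral genes. In silica they ran from 20.25 to 30.9 CPM on day 7 and 7.73 to 10.45 on day 14. On day 63 they were lower in SiO2 (4.23 to 5.78) than in BLM (7.47 to 10.9), opposite to the antiviral genes. The part of all these markers in the results was not tested.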

How the data were processed

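Poly(A) RNA tags (3′SAGE-seq, sequenced on an Ion Proton) were measured in 21 libraries of sorted lung fibroblasts. The authors deposited 1 table per library of raw counts of reads per gene symbol, with no normalization. Bowtie2 2.2.5 and mm10 were named, per the submitters' processing notes; the annotation, counting program and strand setting are not given in the sources used here. Libraries were grouped by title.

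Genes were filtered with filterByExpr, scaled by TMM and fitted in 1 edgeR 4.0.16 quasi-likelihood model (R 4.3.3) with group as the factor and 14 residual degrees of freedom; the biological coefficient of variation was 12%. Adjusted p-values are Benjamini-Hochberg values over the 11669 tested genes of each of 13 comparisons. Steps were tested on simulated data. Alternatives were RLE and upper quartile scaling, robust estimation, limma-voom (limma 3.58.1), DESeq2 1.42.0, no or a stricter filter (at least 5 CPM in 3 libraries), the 6 libraries compared alone, a replicate block, and leaving out each library.

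Members, lists and tests were chosen with earlier results of these data known. Values of every library are given for members with a group mean of at least 20 CPM; of other lists, up to 4 genes with the smallest adjusted p in a comparison were named, and Ccl2, Ccl5, Ifnb1 and Ifng were named beside them. No correlation of deviations between same-numbered libraries of different groups exceeded 0.1 (-0.119 to 0.061 over 63 pairs), so numbers were not treated as pairs. Gene coordinates follow GENCODE vM21 on mm10, and promoter windows RefSeq on GRCm38.p6, the same assembly. 1 result of another list is not reported here.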

Additional observations from a re-analysis of the deposited data

Results flagged for a closer look

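For 52 results the change differed between the silica and bleomycin models of the same day by edgeR's quasi-likelihood test of that difference (adjusted p under 0.05), and each is given here as log2 of SiO2 over BLM. Groups of 3 libraries are too small for a search for single outlying libraries, so BLM day 7 replicate 1 is described in the report.

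On day 7 the difference was 0.65 for Parp9. On day 14 the sensors differed by 1.30 (Ifih1), 1.23 (Ddx58), 2.22 (Dhx58) and 1.72 (Zbp1), and the transcription factors by 3.19 (Irf7), 1.33 (Irf9) and 1.68 (Stat2). The ubiquitin-like system differed by 2.36 (Isg15), 2.65 (Usp18) and 1.61 (Herc6). Genes acting on RNA or translation differed by 2.68 (Ifit1), 1.03 (Ifit2), 2.75 (Ifit3), 2.29 (Oasl2), 2.96 (Oas1a) and 1.04 (Eif2ak2). Genes listed as effectors of replication and release differed by 2.74 (Mx1), 3.09 (Mx2), 2.77 (Rsad2), 2.52 (Cmpk2), 2.12 (Bst2), 1.04 (Samd9l) and 2.12 (Rtp4). The PARP genes and partner differed by 0.91 (Parp9), 1.63 (Parp14) and 1.02 (Dtx3l), and the remaining genes by 3.06 (Ifi44), 0.99 (Ifi35) and 1.32 (Xaf1).

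On day 63 the sensors differed by 0.79 (Ddx58), 1.28 (Dhx58) and 2.31 (Zbp1), and the transcription factors by -1.03 (Irf1), 1.99 (Irf7) and 0.97 (Stat2), so that Irf1 was the gene with the opposite sign. Isg15 differed by 1.67 and Usp18 by 1.56. Ifit1 differed by 1.86, Ifit3 by 1.65 and Oasl2 by 1.32. The fitted value of Oas1a, 7.25, depends on the fit because BLM day 63 had 0 counts; by counts the difference was at least 20.6-fold. Mx1 differed by 2.22, Mx2 by 2.69, Rsad2 by 2.63, Bst2 by 1.26 and Rtp4 by 1.42. Parp9 differed by 0.70, Parp14 by 0.66 and Dtx3l by 0.91, and Ifi44 by 2.75 and Xaf1 by 0.74. In the day 63 comparison the values of Xaf1, Parp14, Dtx3l and Rtp4 missed the threshold when certain single libraries were left out, as given in the report.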

How the results depend on the processing

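Parp14 on BLM day 7 against untreated was 0.00 on the log2 scale with all libraries and not called; leaving out 1 library it ran from -0.41, without BLM day 7 replicate 1, where it was called lower, to 0.20. Counts of members called that moved by over 1.5 times were as follows. BLM day 63 against untreated (3) gave 7 with no filter on low counts and 5 from the 6 libraries compared. SiO2 against BLM on day 7 (1) gave 2 with robust estimation and 2 with no filter. SiO2 day 14 against day 7 (8) gave 4 with DESeq2 and 4 with robust estimation. SiO2 day 63 against day 14 (3) gave 1 with robust estimation, 15 with no filter and 10 from the 6 libraries. The cause was not tested.

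Leaving out 1 library, counts of members called ran from 13 to 18 for BLM day 7, 8 to 12 for BLM day 14, 2 to 3 for BLM day 63, 16 to 19 for SiO2 day 7, 19 to 24 for SiO2 day 14 and 13 to 19 for SiO2 day 63, each against untreated. They ran from 0 to 7, 29 to 30 and 19 to 21 for SiO2 against BLM on days 7, 14 and 63. They ran from 15 to 26 and 5 to 9 for BLM day 14 against 7 and 63 against 14, and from 3 to 9 and 0 to 5 for the same steps in silica.

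Over all genes, calls for BLM day 63 against untreated fell from 1343 to 795 in the absence of untreated library 1 and to 814 in that of BLM day 63 library 3. Those for BLM day 14 against 7 fell from 1169 to 661 in the absence of BLM day 7 library 1. Those for SiO2 day 63 against 14 fell from 411 to between 201 and 265 when SiO2 day 14 library 3 or any of the SiO2 day 63 libraries was left out. With the replicate number as a block (5 of 21 libraries were closest to their own number), 413 of 416 gene results kept their side of the threshold and 15 members were called on BLM day 7. Members under about 10 CPM rest on few counts, and no scaling moved the median of all genes by over 0.1 on the log2 scale.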

Other observations

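The sequence neighbourhood of the members was tallied from GENCODE vM21. In 6 clusters, each with neighbours within 200 kb, lay 15 of the 35 members: Rsad2 and Cmpk2 on chromosome 12, Parp14, Dtx3l and Parp9 on chromosome 16, Mx1 and Mx2 elsewhere on chromosome 16, Ifit2, Ifit3 and Ifit1 on chromosome 19, and Oasl2 with Oasl1, and Oas2, Oas3 and Oas1a, at separate places on chromosome 5. On SiO2 day 14 against untreated, Ifit3 (a log2 fold change of 2.42) and Ifit1 (1.96) were called higher and their neighbour Ifit2 (-0.11) was not called, while Parp9 (1.18), Dtx3l (0.89) and Parp14 (0.51) were all called higher. Differences between such neighbours were not tested.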
